A study of Mus musculus with 6 samples.

Results

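The 33 genes described here encode the proteins with which rods and cones turn light into an electrical signal, out of 33696 genes measured in single cells of the posterior mouse eye. They were chosen by name as rod genes (9), cone genes (11) and genes used by both photoreceptors (13). Eyes received drops of tropicamide, a muscarinic receptor antagonist that widens the pupil, or drops of saline. Tropicamide was given as 6 drops at intervals of 10 min, followed by a wait of 1 h. Saline was given at the same interval, and the number of saline drops and the wait are not stated in the labels. Each group held 12 mice, and 4 right eyes were pooled per library, which gave 3 tropicamide libraries and 3 saline libraries. Sclera, choroid and retina were kept after the lens, cornea, iris and ciliary body had been taken off, and strain, age and sex are not given in the labels.

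The 6 libraries held 30761887 to 49477707 unique molecular identifiers (UMIs, each counted once per captured RNA molecule), and 60096 cells were kept. Any pair of libraries shared 18 to 49 cell barcodes. Clusters were made without the 33 genes among the variable genes. They were named from marker genes and given the ending "-like", and rod-like and cone-like cells are called rods and cones here. The markers used to name cones included Opn1sw, Opn1mw, Arr3, Gnat2, Pde6h, Pde6c, Gngt2 and Cnga3 of the 33 genes. High levels of these genes in cones are therefore in part set by the naming. There were 49176 rods, 461 cones, 622 Müller glia-like cells, 1891 RPE-like cells (RPE, the retinal pigment epithelium), 3112 fibroblast-like cells and 1257 endothelial-like cells. Markers of retina, RPE and the fibroblasts of sclera and choroid were all detected, as the labelled tissue would hold. The libraries also held 203 corneal epithelium-like cells led by Krt12 and Krt5, with 33, 43 and 14 cells in the tropicamide libraries and 45, 26 and 42 in the saline libraries. A pair of fibroblast-like clusters, of 197 and 42 cells, was led by Angptl7 and Kera, genes known from the corneal stroma, although the cornea had been taken off. Counts were summed per library and cell class and expressed per 1000000 UMIs of that class (CPM). A replicate is therefore 1 library of 4 pooled eyes. Nothing in the labels beyond the pools separates the libraries, so p-values measure the spread between pools.

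In darkness a photoreceptor holds its cyclic GMP-gated channels open. Light activates an opsin, the opsin activates transducin, transducin releases the inhibition of a phosphodiesterase, cyclic GMP falls and the channels close. Opsin kinase and arrestin shut off the opsin, the RGS9 complex shuts off transducin, and guanylate cyclase with its calcium-sensing activators restores cyclic GMP while a sodium/calcium exchanger lowers calcium. Rods and cones run this sequence with partly separate sets of subunits.

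Promoters of 3 of the genes are shown because the products of Cnga1, Cngb1 and Slc24a1 sit in the plasma membrane of the rod outer segment and all 3 genes were higher in rods after tropicamide. The sequences are from RefSeq (build GRCm38.p6, while the expression files use GRCm39) and run from 250 bases before to 50 bases after the start, 5′ to 3′ on the gene's strand. Capitals mark the letters TAATCC or its reverse complement GGATTA, the core bound by the photoreceptor factor CRX. Cnga1 lies at chr5:72642703-72643002 on the minus strand, Cngb1 at chr8:95306536-95306835 on the minus strand, and Slc24a1 at chr9:64951571-64951870 on the minus strand.
Cnga1: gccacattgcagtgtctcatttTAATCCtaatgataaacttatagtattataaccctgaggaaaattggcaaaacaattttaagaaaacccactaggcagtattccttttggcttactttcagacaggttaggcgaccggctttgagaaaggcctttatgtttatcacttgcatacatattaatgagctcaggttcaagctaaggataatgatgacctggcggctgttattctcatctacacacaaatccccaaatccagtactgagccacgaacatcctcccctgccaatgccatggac
Cngb1: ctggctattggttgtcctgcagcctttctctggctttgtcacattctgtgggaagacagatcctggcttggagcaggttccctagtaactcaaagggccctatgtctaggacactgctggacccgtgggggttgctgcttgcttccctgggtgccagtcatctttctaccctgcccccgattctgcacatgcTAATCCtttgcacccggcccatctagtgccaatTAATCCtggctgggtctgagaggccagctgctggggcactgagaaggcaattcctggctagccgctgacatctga
Slc24a1: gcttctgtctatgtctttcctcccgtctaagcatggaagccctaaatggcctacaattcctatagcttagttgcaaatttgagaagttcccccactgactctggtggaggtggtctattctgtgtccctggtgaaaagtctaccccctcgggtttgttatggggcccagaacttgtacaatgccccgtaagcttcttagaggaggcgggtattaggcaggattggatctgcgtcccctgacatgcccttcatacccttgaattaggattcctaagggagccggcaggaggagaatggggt
Promoters were found for 23 of the 33 genes. TAATCC, searched on both strands, occurred in 9 of these 23 genes, namely Abca4, Cnga1, Cngb1, Gnat2, Gngt1, Guca1a, Gucy2e, Gucy2f and Sag, and in 7.06% of all 32851 promoters of the same length. The letters TGCTGA from the site of the rod factor NRL (reverse complement TCAGCA), which cannot overlap a TAATCC match, occurred in 5 of the 23 genes (Grk1, Opn1sw, Pde6b, Rgs9 and Sag) and in 19.5% of all promoters. A match describes these letters in this window and does not mark a bound site.

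In rods, the comparison of tropicamide with saline asks how the eye drops changed the RNA of the light response. Rgs9bp and Slc24a1 had the lowest adjusted p values and were higher after tropicamide, and the cone gene Gnb3 was lower. Of the 33 genes 32 passed the low-count filter, and 10 were higher and 1 was lower by edgeR's quasi-likelihood test at a Benjamini-Hochberg adjusted p under 0.05. Genes called higher were 3 of the 9 rod genes, 3 of the 13 shared genes and 4 of the 11 cone genes. By role they were 3 of 6 shut-off genes, 2 of 4 channel genes, 2 of 5 phosphodiesterase genes, 1 of 4 cyclase genes, 1 of 2 exchanger genes, 1 of 2 opsin genes, none of 7 transducin genes and none of 3 disc genes. Among all 16296 genes tested in rods, 5.54% were higher, 4.71% were lower and 10.3% changed in either direction. The median log2 fold change was 0.15 over the 32 tested genes and -0.00339 over all genes. Values of 10 genes lay higher and of 1 gene lower without overlap between the groups, where 31.5% of all genes did not overlap in either direction.

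Rgs9bp encodes the protein that anchors the RGS9 complex to the membrane, where the complex speeds the shut-off of transducin. Its level in rods was 357.3, 377.1 and 361.5 CPM in the tropicamide libraries and 250.6, 259.9 and 277.3 CPM in the saline libraries. The groups did not overlap, and the fitted log2 fold change was 0.49 ± 0.05 (SE) with an edgeR adjusted p of 0.000663. With every cell thinned to 1000 UMIs, 30.1% ± 0.762 of rods had an Rgs9bp UMI after tropicamide and 22.6% ± 1.33 after saline (SD, n = 3 each). Without thinning these shares were 47.0% and 38.7%, and thinning left out 4346 tropicamide and 4923 saline rods with fewer UMIs. Rgs9, the GTPase-activating subunit that Rgs9bp anchors, averaged 1048 ± 33.1 CPM after tropicamide and 998.9 ± 24.7 CPM after saline (SD, n = 3 each) and did not pass the test.

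Slc24a1 encodes NCKX1, the sodium/calcium-potassium exchanger of the rod outer segment. It stood at 834.4, 859.3 and 819.2 CPM in rods of the tropicamide libraries and at 671.0, 658.5 and 728.4 CPM in rods of the saline libraries. All 3 tropicamide values lay above all 3 saline values, with a log2 fold change of 0.31 ± 0.05 (SE) and an edgeR adjusted p of 0.00537. Thinned to 1000 UMIs, 53.9% ± 0.794 of rods carried an Slc24a1 UMI after tropicamide and 46.4% ± 1.79 after saline (SD, n = 3 each). Rgs9bp and Slc24a1 were the only genes of the 33 called in rods in each of the 13 alternatives, 6 of which leave out 1 library.

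Both rod channel genes rose. Cnga1, the pore-forming subunit of the rod channel, had 1775, 1847 and 1800 CPM in tropicamide rods and 1557, 1568 and 1689 CPM in saline rods. Cngb1, its modulatory subunit, had 870.7, 893.6 and 900.5 CPM in tropicamide rods and 788.3, 772.8 and 789.9 CPM in saline rods. Neither gene had overlapping groups, with log2 fold changes of 0.19 and 0.20 and edgeR adjusted p values of 0.0323 and 0.0189. The cone channel genes were scarce in rods: Cngb3 ranged from 1.96 to 7.34 CPM and did not pass the test, and Cnga3 failed the low-count filter.

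Among the genes that restore and shut off the response, Guca1a and Grk1 also rose. Guca1a, which encodes the cyclase activator GCAP1, had 2140, 2381 and 2325 CPM in tropicamide rods and 1997, 1923 and 2057 CPM in saline rods, a log2 fold change of 0.21 with an edgeR adjusted p of 0.0315. Grk1, the rhodopsin kinase, had 597.4, 640.7 and 610.1 CPM in tropicamide rods and 546.6, 563.1 and 556.9 CPM in saline rods, a log2 fold change of 0.17 with an edgeR adjusted p of 0.043. The groups did not overlap for either gene. Guca1b, which encodes the activator GCAP2, averaged 1621 ± 89.2 CPM after tropicamide and 1500 ± 29.3 CPM after saline (SD, n = 3 each) and did not pass the test. The cyclase Gucy2f averaged 364.5 ± 7.42 CPM after tropicamide and 368.4 ± 10.4 CPM after saline (SD, n = 3 each).

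The 6 rod genes other than Cnga1, Cngb1 and Slc24a1 did not pass the test. Gnat1, the rod transducin alpha subunit, had 2255, 2189 and 2384 CPM in tropicamide rods and 2254, 2299 and 2391 CPM in saline rods. The catalytic phosphodiesterase subunit Pde6a averaged 1622 ± 1.84 CPM after tropicamide and 1627 ± 34.9 CPM after saline (SD, n = 3 each), and the rod arrestin gene Sag averaged 9068 ± 160.0 CPM after tropicamide and 9011 ± 376.6 CPM after saline (SD, n = 3 each). The groups overlapped for all of these genes. Log2 fold changes were 0.03 for Pde6b, -0.05 for the transducin gamma gene Gngt1, and 0.01 for Pdc, which encodes the transducin-binding phosducin. The other rod and shared genes did not pass the test either: their log2 fold changes were 0.17 for Rom1, 0.13 for Gucy2e, 0.12 for Pde6g, 0.07 for Rcvrn, 0.03 for Gnb1, 0.03 for the disc-rim gene Prph2 and 0.01 for the retinoid transporter Abca4. Summed over the 9 rod genes, rods held 22690, 22980 and 23580 CPM after tropicamide and 22850, 22320 and 22460 CPM after saline (two-sided exact permutation p = 0.2, where 0.1 is the smallest p that 3 libraries against 3 allow).

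**Figure D1:**
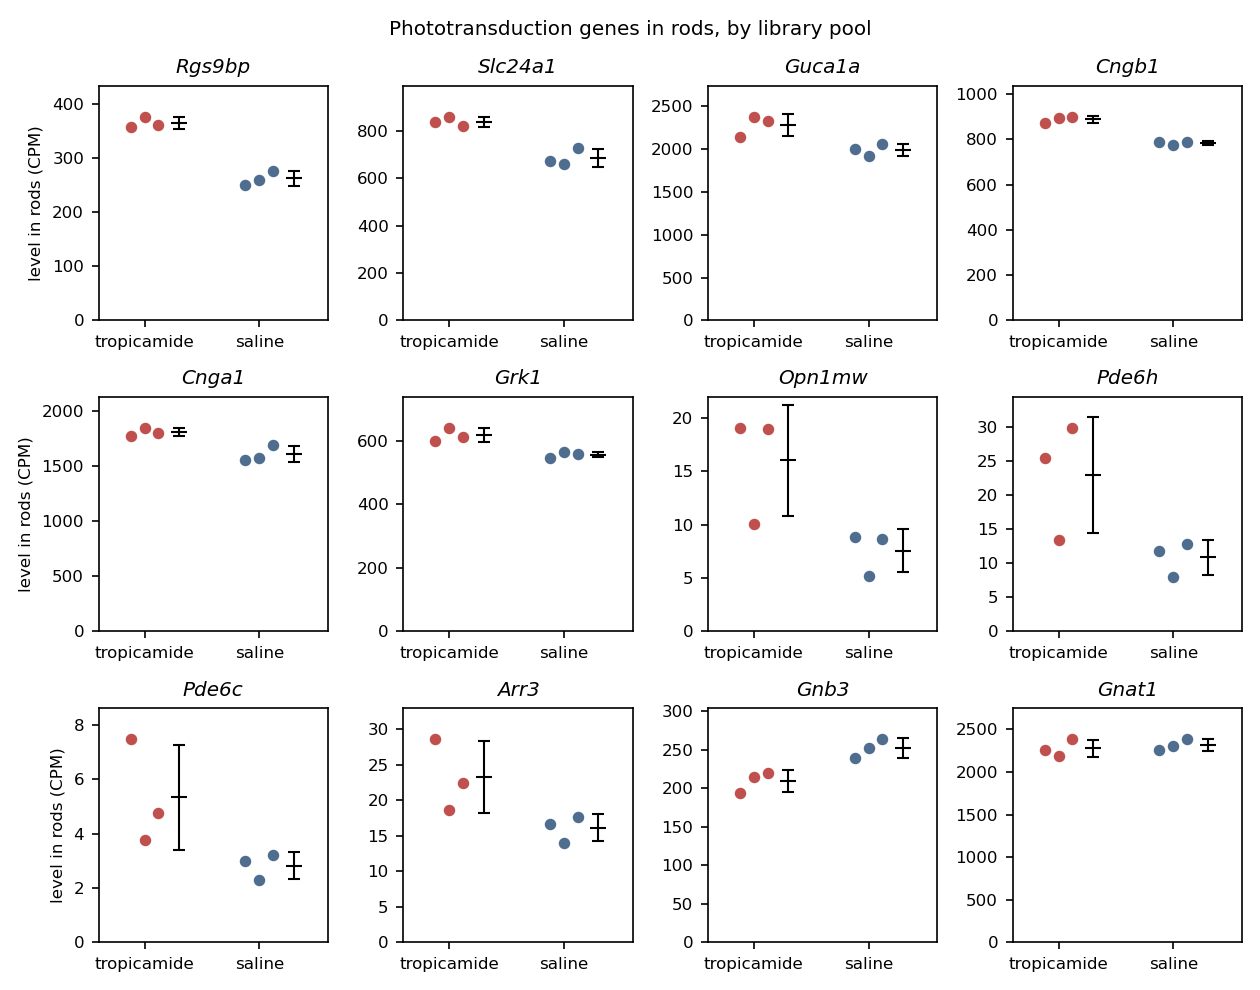
Level in rods, in CPM from 0, of the 11 called genes and of Gnat1; each point is 1 library, tropicamide left of saline, and the bars are the mean ± SD of 3 libraries. The tropicamide points of Rgs9bp (357.3 to 377.1 CPM) lie above the saline points (250.6 to 277.3 CPM), Gnb3 lies lower after tropicamide, and the points of Gnat1 overlap.

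Cone genes were present in rods at trace levels and 4 of the 10 tested were higher after tropicamide. Opn1mw, the middle-wavelength opsin of cones, had 19.1, 10.0 and 19.0 CPM in tropicamide rods and 8.82, 5.24 and 8.70 CPM in saline rods (log2 fold change 1.09, edgeR adjusted p = 0.0182). Pde6h, the cone phosphodiesterase gamma subunit, had 25.4, 13.5 and 29.9 CPM in tropicamide rods and 11.8, 7.99 and 12.8 CPM in saline rods (log2 fold change 1.10, edgeR adjusted p = 0.0204). Both genes had groups that did not overlap, with the second tropicamide library closest to saline. Pde6c, the cone catalytic subunit, and Arr3, the cone arrestin, rose by 0.91 and 0.54 on the log2 scale, with edgeR adjusted p values of 0.0435 and 0.0333. Gnat2, Opn1sw, the short-wavelength opsin gene, Gngt2 and Slc24a2 had log2 fold changes of 0.84, 0.76, 0.74 and 0.86 and did not pass the test. Summed over the cone genes other than Gnb3, rods held 140.5, 73.0 and 130.7 CPM after tropicamide and 75.1, 49.7 and 72.2 CPM after saline. These groups overlapped, with a log2 difference of 0.77 (two-sided exact permutation p = 0.2). Without doublet removal it was 0.59 (exact p = 0.3), and with the stricter cell filter 0.74 (exact p = 0.1). Against cones of the same library, rods held Opn1mw at 0.314%, 0.167% and 0.330% of the cone level after tropicamide and at 0.187%, 0.0775% and 0.130% after saline. For 10 of the 11 cone genes this share lay between 0 and 0.524% in every library.

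Gnb3, the cone transducin beta subunit that ON bipolar cells also use, was the exception. Rods held it at 5.64% to 7.08% of the cone level. Its level was 193.3, 215.2 and 219.7 CPM in tropicamide rods and 238.9, 252.0 and 264.5 CPM in saline rods. All tropicamide values lay below all saline values, and Gnb3 fell by 0.25 on the log2 scale (edgeR adjusted p = 0.0255).

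RNA of several other cell types also differed between the groups in the same rods. The numbers of such cells differed too. RPE-like cells numbered 284, 687 and 566 in the tropicamide libraries and 91, 72 and 191 in the saline libraries. In the same order, melanocyte-like cells numbered 56, 49 and 19 against 7, 4 and 9, and erythrocyte-like cells 95, 81 and 47 against 35, 35 and 45. Fibroblast-like cells overlapped, with 574, 821 and 492 against 349, 270 and 606. The sum of 7 RPE markers was 121.6 to 271.3 CPM in tropicamide rods and 36.7 to 75.3 CPM in saline rods, with 6 of the 7 markers higher without overlap. The sum of 6 fibroblast markers was 316.0 to 431.6 CPM after tropicamide and 151.3 to 295.8 CPM after saline, with 3 markers higher without overlap. The sum of 6 melanocyte markers was 11.8 to 34.8 CPM after tropicamide and 5.40 to 6.92 CPM after saline, with all 6 higher without overlap. The sum of 5 erythrocyte markers was 52.9 to 1630 CPM after tropicamide and 12.6 to 33 CPM after saline, while the sum of 5 corneal epithelium markers was 49.0 to 78.1 CPM after tropicamide and 35.5 to 97.1 CPM after saline. In none of these 5 lists was a marker at 0 in all libraries. Rods held the RPE gene Ttr at 0.0259% to 0.234% of its level in RPE-like cells of the same library. The same percentage of the RPE-like level was 0.120 to 1.52 CPM for Slc24a1, 0 to 0.0195 CPM for Opn1mw, 0.00323 to 0.0207 CPM for Pde6c and 0.00153 to 0.0212 CPM for Arr3. For RNA of cones, the percentage that rods held of Pde6h corresponded to 22.3, 11.1 and 24.3 CPM of Opn1mw in the tropicamide libraries and 9.32, 6.70 and 11.3 CPM in the saline libraries, and to 4.10 to 15.3 CPM of Gnb3. Pde6h was itself called higher in tropicamide rods, so this scaling carries its change over to the other cone genes. The part of RNA from other cell types, RPE and cones included, in the changes above was not tested.

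Left out 1 at a time, each of the 6 libraries changed which genes passed. Among the 33 genes, 4, 9 and 3 were called without tropicamide library 1, 2 and 3, and 5, 2 and 14 without saline library 1, 2 and 3. The highest adjusted p on leaving out a library was 0.156 for Cnga1, 0.0956 for Cngb1, 0.163 for Guca1a, 0.207 for Grk1 and 0.098 for Gnb3. Opn1mw, Pde6h, Pde6c and Arr3 each lost their call without tropicamide library 1, without tropicamide library 3 and without saline library 2, with highest adjusted p values of 0.0701, 0.0702, 0.144 and 0.106. For Rgs9bp the highest was 0.00596 and for Slc24a1 0.0396.

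Rods were then split into 3 sets of equal size by the share of their UMIs that came from mitochondrial genes, at 0.133% and 0.542%, and the low-mitochondrial and high-mitochondrial rods were compared. Of the rods, 5233 lay within 20% of the lower limit and 3475 within 20% of the upper one. Median mitochondrial shares over all rods were 0.321%, 0.223% and 0.345% in the tropicamide libraries and 0.199%, 0.158% and 0.274% in the saline libraries, and the high-mitochondrial set held 8785 rods after tropicamide and 7535 after saline. The low-mitochondrial set held 6988 rods after tropicamide and 9443 after saline. In low-mitochondrial rods 10 of the 33 genes were higher and 1 was lower, with 31 tested; of all genes 5.77% were higher, 4.32% were lower and 10.1% were called in either direction. In high-mitochondrial rods 1 of 31 tested genes was higher and none was lower, where 1.52% of all genes were higher, 1.24% were lower and 2.76% were called. Groups did not overlap for 13 higher and 2 lower genes in low-mitochondrial rods (27.6% of all genes) and for 9 higher and 0 lower genes in high-mitochondrial rods (23.4% of all genes).

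In low-mitochondrial rods Rgs9bp had 368.2, 393.7 and 376.0 CPM after tropicamide and 256.6, 257.7 and 281.2 CPM after saline, and in high-mitochondrial rods 337.5, 357.6 and 345.3 CPM after tropicamide and 246.3, 267.0 and 278.9 CPM after saline. The groups did not overlap in either set, and the log2 fold changes were 0.53 and 0.40, with edgeR adjusted p values of 1.09e-05 and 0.00482. Slc24a1 had 739.6, 776.9 and 729.8 CPM after tropicamide and 610.7, 585.9 and 588.9 CPM after saline in low-mitochondrial rods, a log2 fold change of 0.34 (edgeR adjusted p = 0.000311). In high-mitochondrial rods it had 965.4, 1021 and 958.4 CPM after tropicamide and 806.8, 847.6 and 936.8 CPM after saline; these groups also did not overlap, but the log2 fold change of 0.19 did not pass the test (edgeR adjusted p = 0.14). The other genes higher in low-mitochondrial rods were Cnga1 (0.22), Cngb1 (0.21), Guca1a (0.23), Guca1b (0.18), the disc-rim gene Rom1 (0.18), Opn1mw (1.27), Pde6c (1.53) and Arr3 (0.81), all as log2 fold changes, and Gnb3 was lower (-0.26). Rgs9bp, Slc24a1 and Opn1mw remained called in low-mitochondrial rods without each library, and the number called there ran from 4 to 13.

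**Figure D2:**
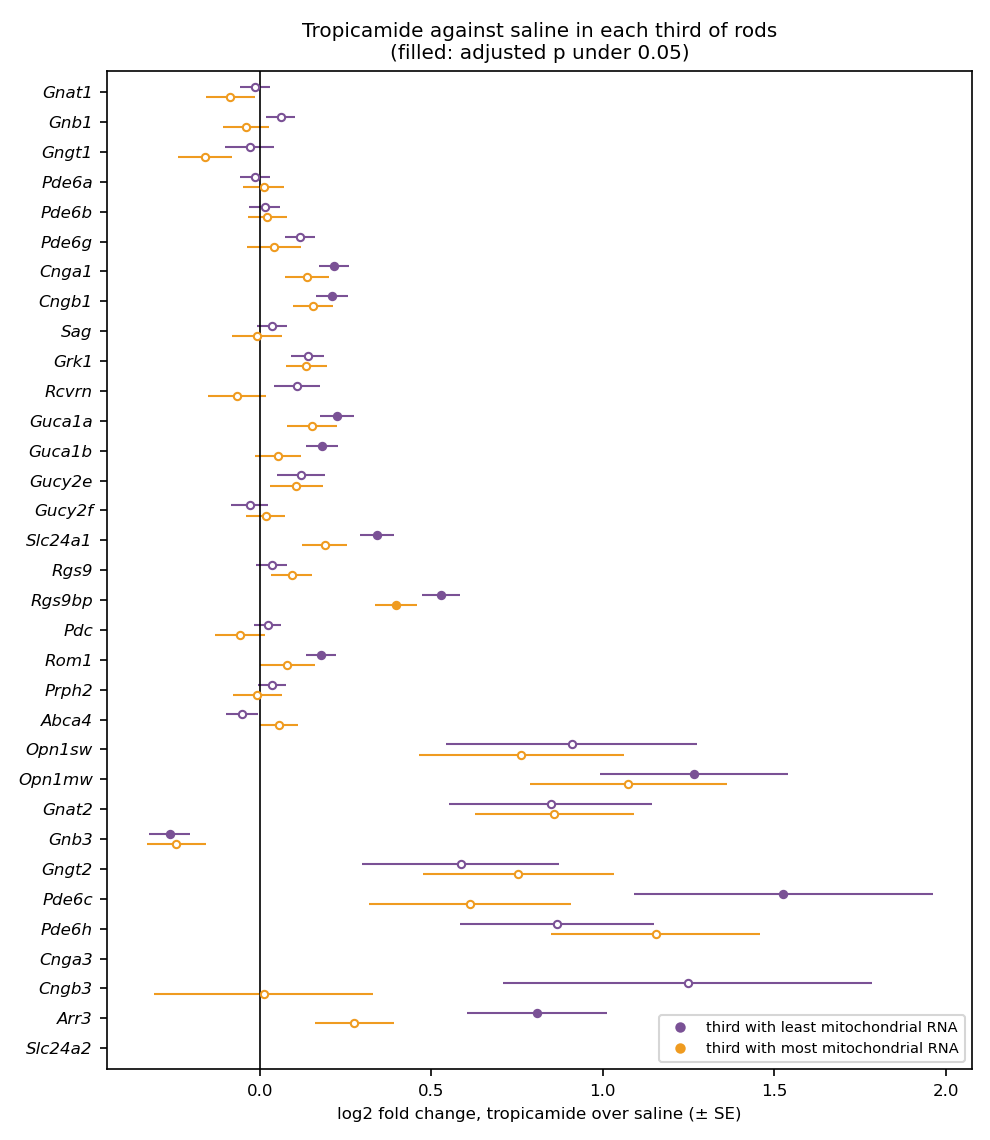
Fitted log2 fold change, tropicamide over saline, of each gene in low-mitochondrial and high-mitochondrial rods; bars are standard errors, and filled points passed the edgeR test at an adjusted p under 0.05. Rgs9bp is filled in both sets, at 0.53 and 0.40, and Slc24a1 is filled in low-mitochondrial rods at 0.34 and open in high-mitochondrial rods at 0.19.

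Whether the sets differed in their response was tested as the interaction of treatment and set. No gene of the 33 was called by edgeR, with 32 tested and 0.422% of all genes called (0.107% higher and 0.315% lower); 15 had an unadjusted p under 0.05, as did 1315 of all genes, and DESeq2 called none. Without saline library 1, 4 of the genes were called, all lower. The log2 change in response, high-mitochondrial minus low-mitochondrial rods, was -0.14 ± 0.06 for Rgs9bp and -0.16 ± 0.05 for Slc24a1 (SE). It was -0.18 ± 0.05 for Rcvrn, which encodes recoverin, the calcium sensor that restrains the opsin kinase, with an edgeR adjusted p of 0.0697.

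Between the sets themselves the genes of the cascade differed widely. In high-mitochondrial against low-mitochondrial rods, each library compared with itself, 26 of 32 tested genes were higher and none was lower, while 23.8% of all genes changed, 13.4% higher and 10.4% lower. The median log2 ratio was 0.29 over the tested genes and -0.0162 over all genes. All 9 rod genes were higher, as were 10 of the 13 shared genes and 7 of the 10 tested cone genes. Median log2 ratios were 0.27 for rod genes, 0.22 for shared genes and 0.68 for cone genes. The part of RNA from cones in these ratios was not tested. Mitochondrial genes were left out of this comparison, and out of the totals behind the ratios of single libraries. On these totals, 23 of the 26 called genes had log2 ratios above 0 in all 6 libraries. Without each library 25 remained called, the exception being Pde6c. Median UMIs per rod were 1769 to 2347 in high-mitochondrial rods and 1957 to 2310 in low-mitochondrial rods.

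Among rod and shared genes the ratio was largest for Rcvrn and Gngt1. Rcvrn had log2 high-over-low ratios of 0.88, 1.04 and 0.96 in the tropicamide libraries and 0.93, 1.13 and 1.35 in the saline libraries. Gngt1 had ratios of 0.61, 0.76 and 0.84 in the tropicamide libraries and 0.68, 0.89 and 1.05 in the saline libraries. No library of either group was near 0 for these genes, and the fitted values were 1.12 ± 0.03 and 0.87 ± 0.03 (SE). The fitted value lay above the mean of the single-library log2 ratios by a median of 0.0657 over the tested genes. Those ratios use totals without mitochondrial genes, while the CPM given next use totals that include them. In CPM, Rcvrn stood at 1471, 1674 and 1768 in high-mitochondrial rods and at 817.7, 831.0 and 934.3 in low-mitochondrial rods of the tropicamide libraries. In the saline libraries it stood at 1653, 1588 and 1925 in high-mitochondrial rods and at 891.6, 746.0 and 775.5 in low-mitochondrial rods.

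Gnat1 had a fitted log2 ratio of 0.62, the inhibitory phosphodiesterase subunit Pde6g of 0.59, Rom1 of 0.59, Slc24a1 of 0.57, the cyclase Gucy2e of 0.48 and Guca1a of 0.36. Sag (0.21), Gnb1 (0.19), Pde6b (0.19), Abca4 (0.18), Pde6a (0.17) and Rgs9 (0.12) rose least among the rod and shared genes called. Not called were Grk1 (-0.05), Gucy2f (0.00), Rgs9bp (0.04), Gnb3 (-0.03), Cngb3 (0.15) and Slc24a2, the exchanger of cones. Grk1 and Gucy2f had log2 ratios below 0 in all 6 libraries, on totals without mitochondrial genes. Slc24a1 and Rgs9bp, the genes called in every alternative for tropicamide, differed here, with a large ratio for Slc24a1 and one near 0 for Rgs9bp.

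**Figure D3:**
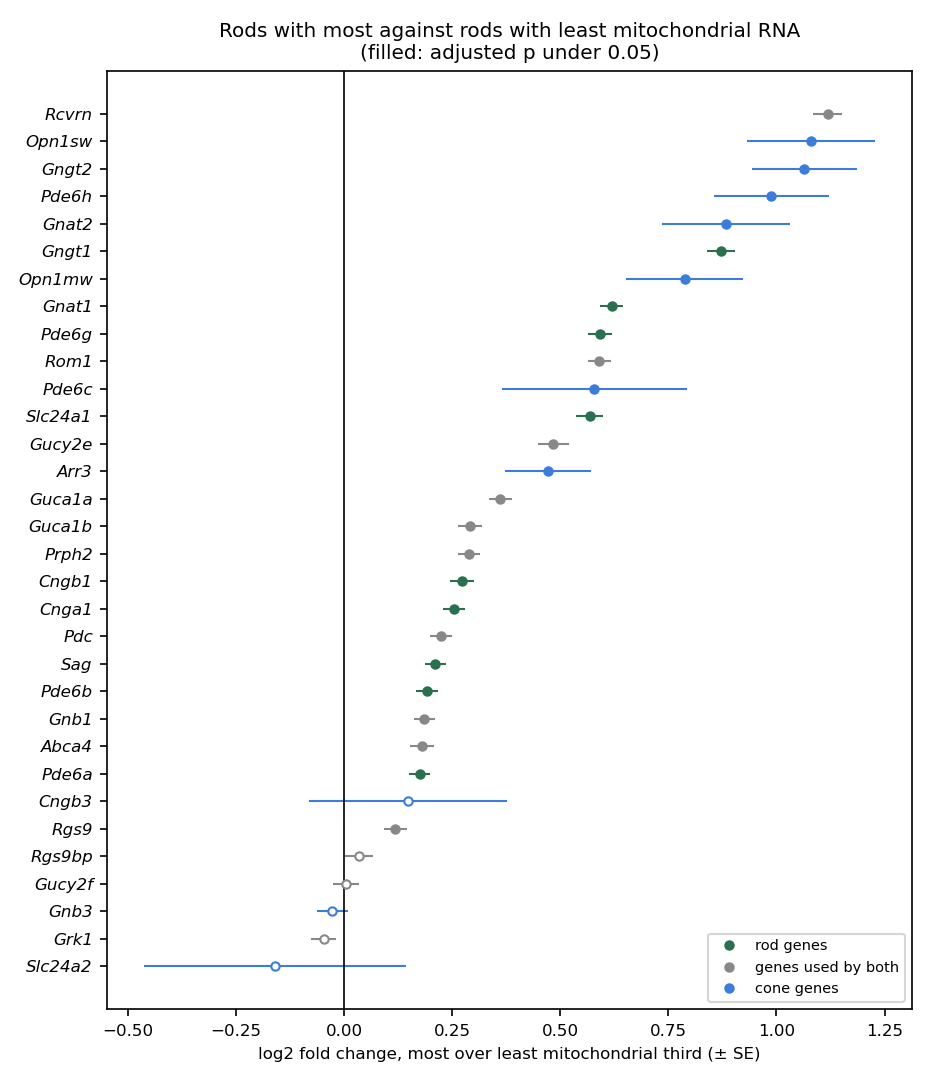
Log2 ratio of each gene's level in high-mitochondrial over low-mitochondrial rods, fitted over 6 libraries; points are coloured as rod genes, genes used by both and cone genes, bars are standard errors, and filled points passed the edgeR test. Rcvrn (1.12) and Gngt1 (0.87) lie farthest right among rod and shared genes, and Grk1, Gucy2f, Rgs9bp and Gnb3 lie near 0.

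In cones the comparison rested on 97, 94 and 92 cells in the tropicamide libraries and 80, 28 and 70 in the saline libraries. The cones formed 2 clusters, and the smaller had medians of 1823 UMIs and 12.6% mitochondrial UMIs. It supplied 12, 27 and 20 of the cones in the tropicamide libraries and 10, 12 and 16 in the saline libraries. No gene of the 33 was called by edgeR among 32 tested, where 0.0264% of all 7577 genes were, all of them higher; 1 had an unadjusted p under 0.05, as did 338 of all genes, and DESeq2 called none. That gene was Rgs9bp, with 197.6, 183.9 and 149.7 CPM in tropicamide cones and 122.9, 91.7 and 124.3 CPM in saline cones. The groups did not overlap, which held for 3 of the tested genes and 9.79% of all genes, but the log2 fold change of 0.57 ± 0.19 (SE) had an edgeR adjusted p of 0.84. Cone genes that were higher in tropicamide rods were not called in cones. Opn1mw averaged 5950 ± 181.2 CPM in tropicamide cones and 6061 ± 1154 CPM in saline cones, and Pde6h averaged 7110 ± 162.7 CPM in tropicamide cones and 7212 ± 1078 CPM in saline cones (SD, n = 3 each). The second saline library, with 28 cones, stood apart with 606.6 CPM of Gnat1, against 211.3 to 289.1 CPM in the other 5.

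Mouse cones are known to hold short-wavelength and middle-wavelength opsin together. UMIs of both opsins were found in 57.6% ± 6.07 of cones after tropicamide and 53.9% ± 8.09 after saline (SD, n = 3 each; two-sided exact permutation p = 0.6). Only Opn1mw was found in 34.9% ± 7.19 of cones after tropicamide and 37.7% ± 7.77 after saline (exact p = 0.7), and only Opn1sw in 6.37% ± 1.16 after tropicamide and 7.92% ± 3.29 after saline (exact p = 0.5). Thinned to 1000 UMIs per cell, both opsins were found in 49.5% ± 2.86 of cones after tropicamide and 45.1% ± 5.99 after saline (exact p = 0.4). Only Opn1sw was then found in 8.04% ± 3.32 of cones after tropicamide and 12.3% ± 4.03 after saline (exact p = 0.3), and with the stricter cell filter in 4.26% ± 2.50 after tropicamide and 8.88% ± 4.497 after saline (exact p = 0.2). None of these comparisons passed the test, and 0.1 is the smallest p the design allows.

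Opsin UMIs were also found in other cells. In all libraries together, an Opn1sw UMI was found in 63.8% of cones and an Opn1mw UMI in 92.4%, at a median of 6198 UMIs per cell. In fibroblast-like cells, at a median of 13150 UMIs, the shares were 9.35% for Opn1sw and 6.17% for Opn1mw. Thinned to 1000 UMIs, the mean shares over libraries were 56.7% and 90.5% in cones and 1.09% and 0.597% in fibroblast-like cells. The shares of cones with both opsins were not corrected for this background.

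Rod and shared genes fell into separate ranges in cones, given as a median over the 6 libraries of the level in cones as a percentage of the level in rods. Rcvrn (177%), Guca1a (180%), Gucy2e (104%) and Rgs9 (113%) were as high in cones as in rods or higher. Pde6g (87.6%), Gngt1 (74.6%), Sag (62.9%), Grk1 (55.9%), Abca4 (51.0%), Rgs9bp (46.8%), Pdc (42.3%), Rom1 (40.5%) and Prph2 (39.2%) lay between. Gnat1 (12.0%), Slc24a1 (9.62%), Pde6a (8.62%), Cngb1 (8.59%), Cnga1 (7.61%), Gnb1 (7.25%), Pde6b (6.88%) and Gucy2f (4.61%) were lowest, and Guca1b was at 13.3%. In cell classes other than photoreceptors the median of the 9 rod genes stood at 3.74% to 10.4% of the rod level.

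**Figure D4:**
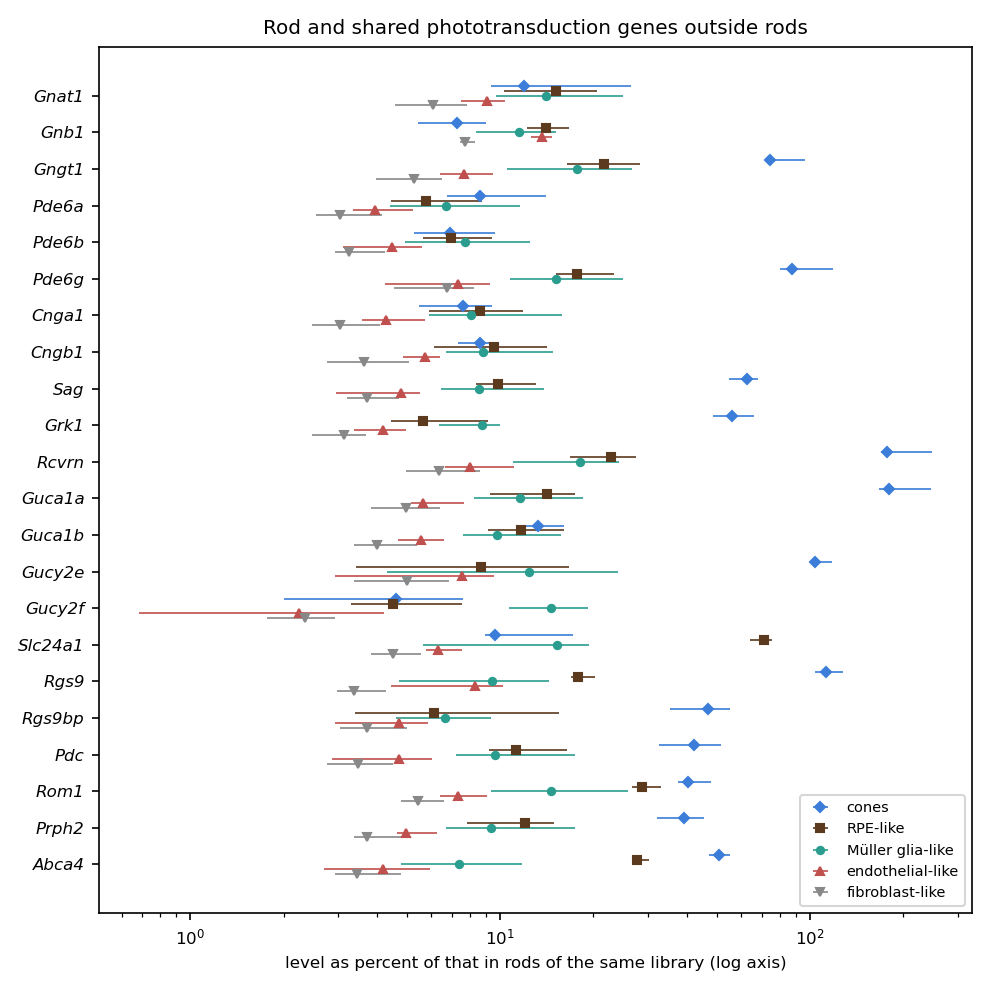
Level of each rod or shared gene in 5 cell classes as a percentage of its level in rods of the same library, on a log axis; symbols are medians and lines the range of the 6 libraries. Cone medians separate into 13 genes at 39.2% or above and 9 genes at 13.3% or below, and RPE-like cells hold Slc24a1 at 64.0% to 75.7%.

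Cells that are not photoreceptors were taken as a measure of free photoreceptor RNA. The median of the 9 rod genes, as a percentage of their level in rods, was 10.5% ± 1.93 after tropicamide and 11.1% ± 2.72 after saline in RPE-like cells, and 4.37% ± 0.665 after tropicamide and 3.53% ± 0.273 after saline in fibroblast-like cells (SD, n = 3 each). In endothelial-like cells it was 5.54% ± 0.700 after tropicamide and 5.38% ± 0.977 after saline. In cones, which are photoreceptors and not a measure of free RNA, it was 10.1% ± 1.49 after tropicamide and 11.9% ± 4.54 after saline. Of the rod genes, Pde6g, Gngt1 and Sag lay far above this median in cones. Several genes stood at 2 or more times the rod-gene median of their class in all 6 libraries.

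In RPE-like cells Slc24a1 stood at 64.0% to 75.7% of its level in rods and Rom1 at 26.6% to 33.2%. Slc24a1 was 534.3, 650.6 and 567.3 CPM in RPE-like cells of the tropicamide libraries and 494.8, 461.4 and 522.7 CPM in those of the saline libraries. The cone genes Gnat2, Pde6c, Pde6h and Arr3 met the same limit in RPE-like cells, 8 cone genes did so in fibroblast-like cells, and Opn1mw and Slc24a2 did so in Müller glia-like cells, all against the trace levels in rods. In endothelial-like cells it was met by Gnb1, a beta subunit used well beyond photoreceptors, at 12.6% to 14.7%, and Gngt2, the cone transducin gamma subunit, at 356.1% to 1611%, beside the cone genes Opn1sw, Pde6h and Arr3. Rod bipolar-like cells held Gnb3 at 466.7% to 707.8% of rods. Cone bipolar-like cells held Gnat2, the cone transducin alpha subunit, Gnb3, Gngt2, Cngb3 and Slc24a2 at 2 or more times that median as well.

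Across the 22 rod and shared genes, the percentage of the rod level that other cells held ran in the same direction as the ratio of high-mitochondrial to low-mitochondrial rods. Pearson's r of the log2 percentage with the log2 high-over-low ratio was 0.77 in Müller glia-like cells, 0.70 in fibroblast-like cells, 0.62 in RPE-like cells and 0.54 in endothelial-like cells, and Spearman's rho was 0.71, 0.74, 0.64 and 0.63. The points are genes of the same 6 libraries, are not independent replicates and share the rod level that enters both axes.

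Tropicamide was compared with saline in 4 classes outside photoreceptors, and genes of the 33 were called in Müller glia-like cells, the radial glia of the retina. Of the 33 genes 23 were tested, 16 were higher after tropicamide and none was lower, where 2.06% of all 7701 genes were higher, 0.987% were lower and 3.05% changed. The median log2 fold change of the 23 was 0.87, and all 23 were above 0. Values did not overlap between the groups for 21 of the 23 and for 19.8% of all genes. Gngt1 had 519.3, 523.2 and 702.7 CPM in Müller glia-like cells after tropicamide and 293.7, 322.1 and 318.1 CPM after saline (log2 fold change 0.88, edgeR adjusted p = 0.00575). Gnat1 had 368.1, 423.8 and 594.4 CPM after tropicamide and 219.4, 272.4 and 258.1 CPM after saline (log2 fold change 0.87, edgeR adjusted p = 0.0106). Neither had overlapping groups, and Cngb1 (1.07), Slc24a1 (1.09), Pdc (0.84) and Gnb1 (0.67) rose alike on the log2 scale.

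Other RNA moved with it in the same cells. The sum of 6 fibroblast markers was 922.1 to 1649 CPM in Müller glia-like cells after tropicamide and 147.5 to 226.5 CPM after saline, with all 6 apart. The sum of 7 RPE markers was 216.6 to 1035 CPM after tropicamide and 81.6 to 98.7 CPM after saline, while the sum of 6 Müller glia markers was 10930 to 12020 CPM after tropicamide and 12290 to 12670 CPM after saline. No marker of these 3 lists was at 0 in all libraries. Median UMIs per cell were 1393, 1993 and 1350 after tropicamide and 3106, 7168 and 4858 after saline. In the larger of the 2 clusters, where median UMIs were 7094, 7085 and 4638 after tropicamide and 6145, 8265 and 5931 after saline, 8 of 22 tested genes were called. No gene remained called without each library: none was called without saline library 1, and 2 were called without tropicamide library 3. The part of depth and of other cells' RNA in the change was not tested.

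Summed over the 9 rod genes, Müller glia-like cells held 2742, 3404 and 4202 CPM after tropicamide and 1761, 2120 and 1840 CPM after saline (log2 difference 0.84). In their larger cluster the sum was 2244, 3432 and 3417 CPM after tropicamide and 1604, 1817 and 1515 CPM after saline (log2 difference 0.86). Both sums had groups that did not overlap, with a two-sided exact permutation p of 0.1, the smallest possible. In RPE-like cells the sum was 3106, 3084 and 4111 CPM after tropicamide and 3862, 2733 and 2916 CPM after saline (log2 difference 0.12, exact p = 0.5). In fibroblast-like cells the log2 difference was 0.33 (exact p = 0.2) and in endothelial-like cells 0.07 (exact p = 0.8), and the groups overlapped in all 3 classes.

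**Figure D5:**
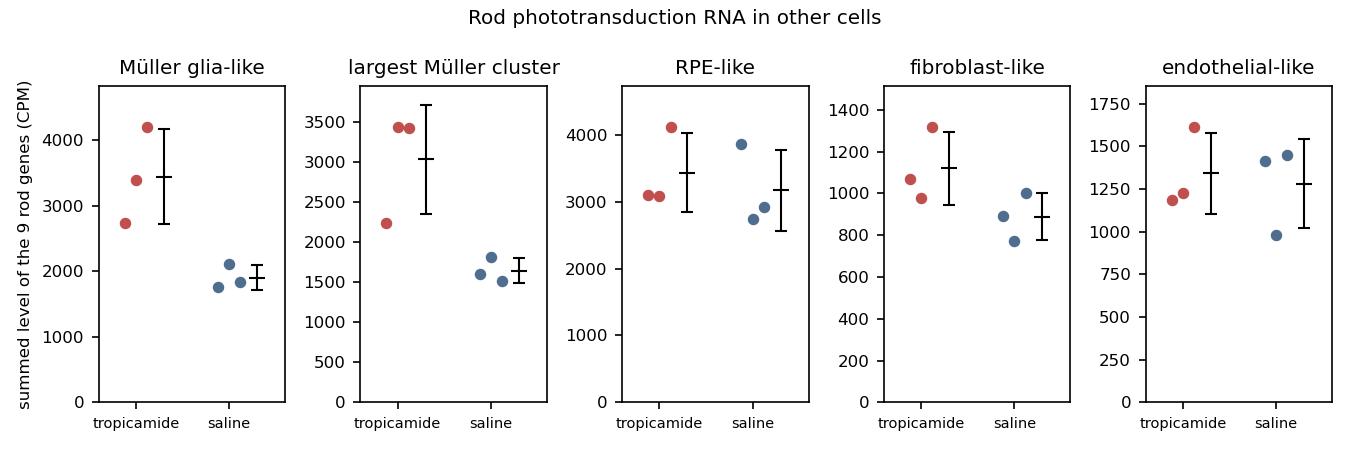
Sum of the 9 rod genes, in CPM from 0, in Müller glia-like cells, in their larger cluster and in RPE-like, fibroblast-like and endothelial-like cells; each point is 1 library, tropicamide left of saline, and the bars are the mean ± SD of 3 libraries. Müller glia-like cells are at 2742 to 4202 CPM after tropicamide and 1761 to 2120 CPM after saline, and the groups overlap in RPE-like, fibroblast-like and endothelial-like cells.

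By edgeR none of the 33 genes was called in RPE-like, fibroblast-like or endothelial-like cells. In RPE-like cells 23 were tested and 10 had an unadjusted p under 0.05, as did 385 of all 5209 genes, and 0.173% of all genes were called after adjustment, 0.0192% higher and 0.154% lower. Values lay apart between the groups for 3 of the 23 (13.9% of all genes). In fibroblast-like cells 29 were tested, 7 had an unadjusted p under 0.05, as did 1823 of all genes, and 0 of 14394 genes (0%) were called, while DESeq2 called 239 genes and 1 of the 33. Values lay apart between the groups for 13 of the 29, all higher (21.4% of all genes). In endothelial-like cells 27 were tested, 1 had an unadjusted p under 0.05, as did 675 of all genes, and 0 of 10739 genes (0%) were called, while DESeq2 called 7 genes and none of the 33, and values lay apart for 0 of the 27 (12.5% of all genes). DESeq2 called none of the 33 in RPE-like cells.

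Other photoreceptor genes were counted from lists set by function, beside the shares of all genes called in rods (5.54% higher and 4.71% lower after tropicamide). Of 18 further phototransduction genes tested in rods, 3 were higher and 1 was lower after tropicamide, with a median log2 fold change of 0.16 over the 18. Gnb5, the beta subunit that partners Rgs9, rose by 0.27, Aipl1, a chaperone for phosphodiesterase, by 0.17, and the potassium channel gene Kcnv2 by 0.23 on the log2 scale. Of 28 outer segment and cilium genes 4 were higher and 1 was lower, with a median of 0.05. Cep290, a protein of the ciliary transition zone, rose by 0.26, the axonemal genes Rp1 and Rp1l1 by 0.22 and 0.17, and Arl3, a small GTPase of lipidated-protein transport, by 0.21, while Spata7 fell by 0.23 on the log2 scale. Of 12 synapse genes 1 was higher, Rims2, an active-zone scaffold, by 0.28. In high-mitochondrial against low-mitochondrial rods, where 13.4% of all genes were higher and 10.4% lower, 9 of 16 tested further phototransduction genes were higher and 2 were lower, and of 28 outer segment and cilium genes 12 were higher and 6 lower. Cdhr1 (0.69) and Prcd (0.51), which encode proteins of outer segment discs, had the lowest p values of that list, and Rp1 (-0.13) and Rpgr (-0.13) were lower.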

How the data were processed

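The deposited counts are UMIs per gene and cell barcode, not normalized; they came from Cell Ranger 8.0.1, per the file headers, and STAR and the build GRCm39 are named per the submitters' processing notes. How introns were counted and cells were called by the authors was not stated. The labels' extraction text concerns bone and was set aside. Barcodes with under 500 UMIs, under 300 genes or over 20% mitochondrial UMIs were removed (416 of 66434), and doublets scored against simulated pairs were removed at 0.8% per 1000 barcodes (5922). Free RNA was not removed. The cells were clustered in scanpy 1.11.5 (2000 variable genes without the 33 members, 30 components, 20 neighbours, 42 clusters) and named from markers.

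Raw counts were summed per library and class and compared, tropicamide over saline, with edgeR 4.0.16 (quasi-likelihood test, TMM, filterByExpr, Benjamini-Hochberg adjustment over all genes tested) in R 4.3.3. High-mitochondrial and low-mitochondrial rods were compared with library as a term and with mitochondrial genes left out, as was the interaction. DESeq2 1.42.0, other filters, other splits and leaving out each library were alternatives. CPM and shares were computed in Python 3.11.15, and single values were tested by exact permutation over the 20 arrangements. The code was tested on simulated data. Members and lists were chosen with earlier results of these data known. All 33 members are named; of the other lists, up to 4 genes with the smallest p in each direction among those past the threshold are eligible for naming, and 1 gene of these lists is not reported here. Intervals and p-values cover the pools sequenced here.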

Additional observations from a re-analysis of the deposited data

How the results depend on the processing

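The labels do not say whether replicate numbers pair the libraries. Deviations of same-numbered libraries from their group means had correlations over genes of -0.011, -0.089 and -0.243. Other pairs had -0.145 to 0.231. Deviations from a group mean are not independent of each other, so these correlations cannot decide whether the numbers pair the libraries. With a replicate block, 13 of the 33 genes were called in rods (11 without it), 12 in low-mitochondrial rods, 4 in high-mitochondrial rods (1 without it), 15 in Müller glia-like cells, 1 in RPE-like cells (0 without it) and none in cones.

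In rods the number of the 33 genes called was 7 without doublet removal and 2 to 14 on leaving out 1 library. In low-mitochondrial rods it was 4 to 13 on leaving out 1 library. In high-mitochondrial rods it was 8 without the low-count filter, 3 with the stricter cell filter, 3 with a split at the median, 3 with a split at 1% mitochondrial UMIs (chosen after seeing the data) and 1 to 6 on leaving out 1 library. In Müller glia-like cells it was 8 in the larger cluster (chosen after seeing the data), 8 without doublet removal and 0 to 19 on leaving out 1 library. In RPE-like cells it was 1 without the low-count filter and 0 to 1 on leaving out 1 library. In fibroblast-like cells it was 1 by DESeq2 and 3 without the filter. For the interaction it was 0 to 4 on leaving out 1 library, and between high-mitochondrial and low-mitochondrial rods 25 to 27. Without doublet removal the median rod gene stood at 16.3% of rods in RPE-like cells (10.8% with it), 5.28% in fibroblast-like cells (3.95% with it) and 7.50% in endothelial-like cells (5.46% with it).

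Differences with no call changed sign on leaving out 1 library. The log2 difference of the summed rod genes ran from -0.0179 (without tropicamide library 3) to 0.27 in RPE-like cells and from -0.11 (without saline library 2) to 0.17 in endothelial-like cells, where it was also -0.07 without tropicamide library 3. The share of cones with Opn1mw alone differed by -7.198 to 0.608 percentage points (the highest without tropicamide library 3), and the share with both opsins by -0.05517 (without saline library 2) to 7.98 points. The causes of these changes were not tested.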
